A study of Mus musculus with 4 samples.

Results

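The proteasome is the large protease that degrades ubiquitin-tagged proteins in the cytosol and nucleus. Its core particle is a barrel of alpha and beta rings with the protease sites inside, and the regulatory particle caps the barrel, binds the ubiquitin chain, removes it and unfolds the substrate with a ring of ATPases. Dedicated chaperones build both particles, and in T cells the proteasome also makes the peptides that MHC class I molecules present. Proteasome subunit genes were taken as all rows of the deposited expression table whose symbol begins with Psm, a letter from a to g and a number, that were annotated as protein-coding and had a mean of at least 1 FPKM (fragments scaled to the exon length of the gene and to the total tags of the library) over all libraries. Psmb8, Psmb9 and Psmb10, the catalytic subunits of the immunoproteasome, were left out by that definition. It gave 45 of the 24537 genes in the table, of 50 that match the pattern. Of the other genes that match it, Psma8, a germ cell subunit, was listed at a mean of 0.022 FPKM and Psmb11, the thymus subunit, at 0 in every library, while the lowest gene taken in, Psme4, had a mean of 4.98 FPKM. The 45 genes comprised 14 core subunits, 17 regulatory particle subunits, 4 core assembly chaperones, 3 chaperones of the regulatory base, 5 genes of other activators, the regulator Psmf1 and Psmc3ip. Psmc3ip matches the pattern by name only: it encodes a partner of the recombinases, not a proteasome subunit, and it enters the totals over 45 genes but no particle.

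RNA was sequenced from CD8+ T cells recovered from B16-GP33 tumours in mice on day 21 after implantation. The tumours grow from the mouse melanoma line B16, and GP33 is a viral epitope seen by CD8+ T cells. There were 2 libraries of cells labelled EV, taken here as the control, and 2 of cells labelled ACSS2NLS, that is, cells given ACSS2, the enzyme that makes acetyl-CoA from acetate, with what is by its usual abbreviation a nuclear localisation signal. No group carried ACSS2 without that signal, so its level and its location cannot be told apart, and the labels do not say whether the libraries came from separate mice. If they did not, the p-values measure only technical spread.

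Acss2 was at 3.66 and 3.92 FPKM in EV, against 80.7 and 86.3 FPKM in ACSS2NLS, which matches the labels. Libraries held 46000000 to 49300000 tags, of which 39.6% to 41.9% were counted as sense-strand tags in exons of the 1 transcript kept per gene. All 8 CD8 T cell markers were above 1 FPKM in each library. Their summed level was 2205 and 1830 FPKM in EV against 2042 and 1603 FPKM in ACSS2NLS, in the order of replicates 1 and 2. Transcripts of other cells were present as well: the summed level of 9 melanoma markers was 5.70 and 38.7 FPKM in EV against 11.5 and 139 FPKM in ACSS2NLS, and that of 14 myeloid markers was 189 and 598 FPKM in EV against 316 and 915 FPKM in ACSS2NLS, in the order of replicates 1 and 2. None of these markers was at 0 in all libraries. The melanoma and myeloid sums were higher in replicate 2 than in replicate 1 of each group, and the CD8 T cell sum was lower. Their part in the results was not tested. In such bulk samples, fewer cells of a type and less RNA per cell cannot be told apart.

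Proteasome genes were abundant, and none passed the test for a difference between the groups. Of the 45 genes, 27 had a higher and 18 a lower mean in ACSS2NLS, with a median difference of 0.03 on the log2(FPKM + 1) scale, beside 0.02 over the 9810 genes tested, of which 53.2% had a higher mean. The differences ran from -0.23 for Psmd3 to 0.43 for Psmg3, with standard errors of 0.10 to 0.19. No proteasome gene passed the limma-trend threshold of 0.05 after Benjamini-Hochberg adjustment in either direction (smallest adjusted p = 0.81), where 0.0204% of all genes passed upward and 0% downward. That upward share is 2 genes, among them Acss2 itself, so hardly any gene in the table passed. At an unadjusted p under 0.05 by the same tool, Psmg3 and Psmg4 were higher and 0 were lower, where 3.1% of all genes were higher and 2.87% lower. Both ACSS2NLS libraries lay above both EV libraries for 9 of the 45 genes and below them for 7, which is 20% and 15.6%. The same was true of 19.3% and 18.1% of all genes tested, so on the values as deposited the share of proteasome genes whose groups did not overlap was close to that of all genes. Scaling moved these counts: the number with a higher mean was 30 under quantile normalization, 23 with median centring and 32 with FPKM rescaled to the same sum, and the numbers apart upward and downward were 16 and 6, 4 and 7, and 15 and 5. Upward these are 35.6%, 8.89% and 33.3% of the 45 genes, against 17.3%, 15.3% and 21.5% of all genes under the same scalings, so that the share lay on either side of that of all genes. Downward they are 13.3%, 15.6% and 11.1%, against 19.8%, 22.2% and 15.3%.

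**Figure D1:**
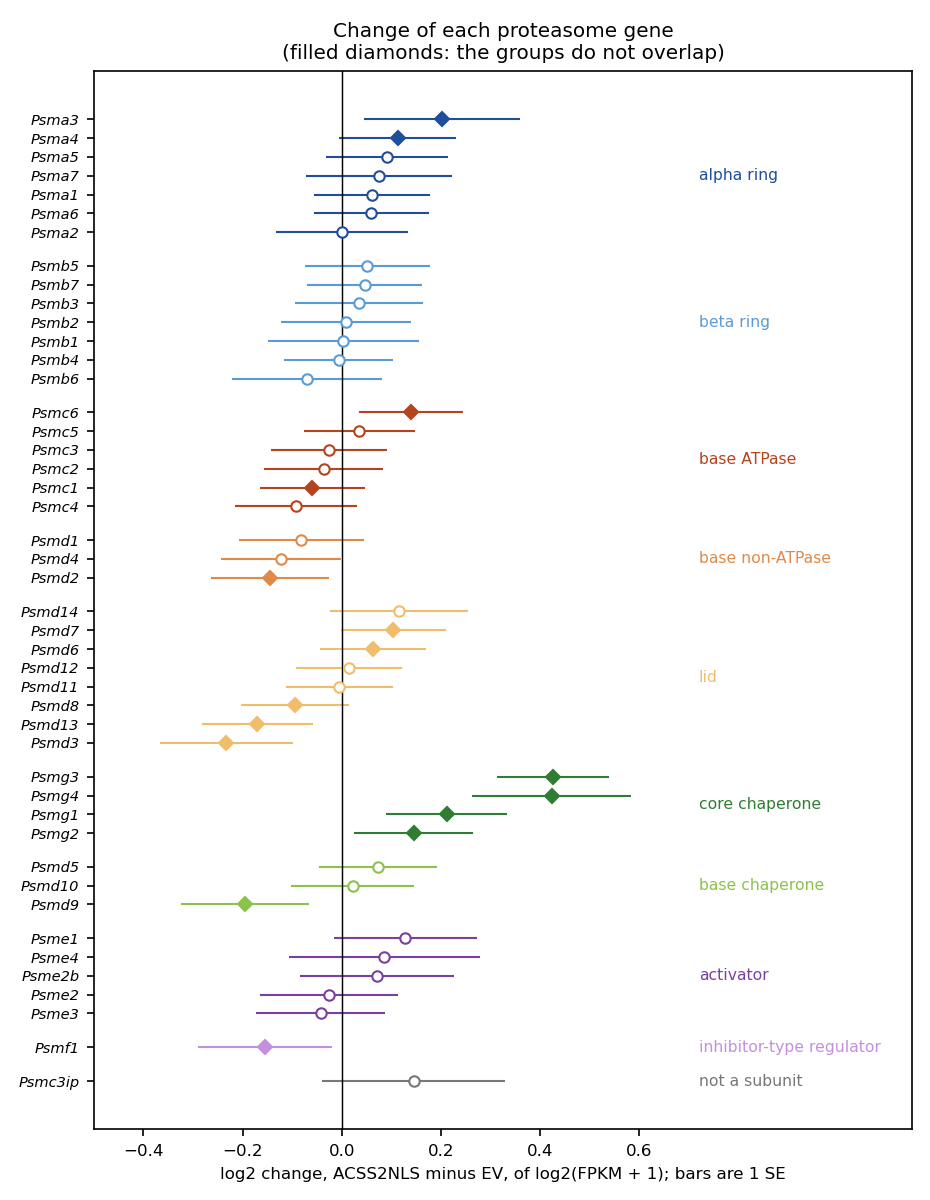
Difference of each of the 45 genes between ACSS2NLS and EV on the log2(FPKM + 1) scale, with 1 standard error from limma (n = 2 per group), ordered by role. Filled diamonds mark the 16 genes whose groups do not overlap; the 4 core chaperones are all to the right of 0, and the regulatory particle subunits lie on both sides.

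The 4 core assembly chaperones all had higher values in both ACSS2NLS libraries, as did 19.3% of all genes tested. Psmg3, Psmg4 and Psmg1 had the largest upward differences of the 45 genes. The genes Psmg1 to Psmg4 encode 2 heterodimers, PSMG1 with PSMG2 and PSMG3 with PSMG4, that help to form the alpha ring of the core. Neither is part of the finished proteasome. Psmg3 (NM_025604; mm10 chromosome 5, 139823594 to 139826843, minus strand) was at 11.2 and 11.3 FPKM in EV, against 15.1 and 15.8 FPKM in ACSS2NLS. Its groups were well apart and its replicates close, with a 1.37-fold ratio of the means and a log2 difference of 0.43 ± 0.11 (SE, n = 2 per group; limma-trend, unadjusted p = 0.0109, adjusted p = 0.81).

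Psmg4 (NM_001110515; chromosome 13, 34162964 to 34178172, plus strand) was at 18.8 and 18.4 FPKM in EV, against 29.2 and 21.9 FPKM in ACSS2NLS. Replicate 1 of ACSS2NLS was far above replicate 2, though both exceeded the EV libraries, and the ratio of the means was again 1.37 (log2 difference 0.42 ± 0.16, limma-trend, unadjusted p = 0.0421, adjusted p = 0.81). Without ACSS2NLS replicate 1 the log2 difference of Psmg4 was 0.22, while that of Psmg3 was 0.46.

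Psmg1 (NM_019537) was at 12.9 and 13.7 FPKM in EV, against 16.5 and 14.6 FPKM in ACSS2NLS, a log2 difference of 0.21 ± 0.12. Its partner Psmg2 (NM_134138) was at 19.4 and 19.1 FPKM in EV, against 22.8 and 19.9 FPKM in ACSS2NLS, a difference of 0.14 ± 0.12. The groups of both genes were apart, but by little: the lower ACSS2NLS library exceeded the higher EV library by less than 1 FPKM in each. Over the 4 chaperones the median difference was 0.32 on the log2 scale, and it was 0.18 without ACSS2NLS replicate 1. All 4 transcripts are short, from 474 to 1050 exon bases, and short transcripts were higher in ACSS2NLS replicate 1 over all genes, as given with the length classes. With that trend removed from each library, the median of the 4 was 0.19, and the log2 differences of Psmg3 and Psmg4 were 0.33 and 0.24. The groups of 3 of the 4 were then apart, as with median centring. Of all genes tested, 17.6% were apart upward with the length trend removed and 15.3% with median centring.

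The maturation factor Pomp, which works beside these chaperones when the beta subunits are added, is not among the 45 genes. It was at 133 and 137 FPKM in EV, against 150 and 129 FPKM in ACSS2NLS, with overlapping groups (log2 difference 0.04 ± 0.14). The chaperones of the regulatory base were mixed. Psmd9 was at 7.87 and 7.25 FPKM in EV, against 6.27 and 6.67 FPKM in ACSS2NLS, lower in both (log2 difference -0.20 ± 0.13, limma-trend, adjusted p = 0.825). Psmd5 and Psmd10, which holds the ATPase PSMC4 during assembly, had overlapping groups and differences of 0.07 ± 0.12 and 0.02 ± 0.12.

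The promoters of the chaperone genes are shown here because Psmg3 and Psmg4 had the largest differences of the group, beside promoters of a core subunit, Psma7, and of Psmc6 and Psmd2, regulatory particle subunits whose groups were apart in opposite directions. Each is the 250 bases before the annotated start, from RefSeq on GRCm38.p6, whose chromosome coordinates are those of mm10, written 5′ to 3′ on the strand of the gene. Capitals mark matches to CCGGAAG on either strand, the core of the site that ETS family factors bind.

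Psmg1 (chr16:95990961-95991210, minus strand): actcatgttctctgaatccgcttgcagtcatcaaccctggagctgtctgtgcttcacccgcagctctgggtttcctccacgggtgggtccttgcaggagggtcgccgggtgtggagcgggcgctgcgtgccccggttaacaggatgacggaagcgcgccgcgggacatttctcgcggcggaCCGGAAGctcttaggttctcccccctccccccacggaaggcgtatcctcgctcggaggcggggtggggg
Psmg3 (chr5:139826895-139827144, minus strand): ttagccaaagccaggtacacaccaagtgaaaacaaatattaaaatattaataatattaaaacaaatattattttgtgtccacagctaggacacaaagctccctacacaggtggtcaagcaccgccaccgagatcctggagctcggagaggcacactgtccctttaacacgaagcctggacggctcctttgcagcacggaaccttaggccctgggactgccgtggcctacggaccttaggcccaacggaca
Psmg4 (chr13:34162714-34162963, plus strand): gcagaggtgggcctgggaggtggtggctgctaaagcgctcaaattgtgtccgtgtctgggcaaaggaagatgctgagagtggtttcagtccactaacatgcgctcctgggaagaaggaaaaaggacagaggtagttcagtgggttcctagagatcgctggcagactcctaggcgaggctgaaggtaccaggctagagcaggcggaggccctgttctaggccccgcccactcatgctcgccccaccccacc
Psma7 (chr2:180042465-180042714, minus strand): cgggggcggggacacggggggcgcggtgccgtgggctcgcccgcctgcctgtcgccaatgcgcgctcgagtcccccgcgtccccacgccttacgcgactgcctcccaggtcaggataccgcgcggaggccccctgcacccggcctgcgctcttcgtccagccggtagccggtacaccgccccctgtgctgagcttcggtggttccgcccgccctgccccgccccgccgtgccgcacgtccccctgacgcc
Psmc6 (chr14:45329574-45329823, plus strand): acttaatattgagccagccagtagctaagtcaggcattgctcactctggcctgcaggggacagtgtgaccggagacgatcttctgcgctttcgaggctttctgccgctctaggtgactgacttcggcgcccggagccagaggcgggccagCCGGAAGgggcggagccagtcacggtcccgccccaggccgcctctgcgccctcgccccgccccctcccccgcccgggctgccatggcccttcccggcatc
Psmd2 (chr16:20651402-20651651, plus strand): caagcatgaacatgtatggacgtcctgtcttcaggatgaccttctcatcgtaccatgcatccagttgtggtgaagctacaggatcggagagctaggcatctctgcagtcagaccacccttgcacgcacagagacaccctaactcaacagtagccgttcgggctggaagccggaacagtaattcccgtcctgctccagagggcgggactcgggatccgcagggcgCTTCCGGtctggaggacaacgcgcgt

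Psmg1 had 1 match, which began 69 bases before the start, Psmc6 had 1 at 100 bases and Psmd2 had 1 at 26 bases, whereas the windows of Psmg3, Psmg4 and Psma7 had 0. The start used for Psmg1 and Psmg3 lay 57 and 51 bases from the start of the transcript in the expression table, and that of the other 4 coincided with it. Of the 45 genes, 38 had a promoter in the RefSeq table; Psmb1, Psmb2, Psmb7, Psmc3, Psmd3, Psmd7 and Psmg2 were not matched. CCGGAAG lay in 8 of 14 regulatory particle promoters (57.1%) and in 0 of 11 core particle promoters, against 16.7% of the 7489 promoters of tested genes of the same length. With the 50 bases after the start included it was 9 of 14, 0 of 11 and 22.02%. The regulatory promoters with a match were those of Psmc1, Psmc2, Psmc6, Psmd2, Psmd4, Psmd6, Psmd11 and Psmd12, genes whose differences between the groups had both signs.

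Over the 38 promoters of both particles and the other genes, CCGGAAG lay in 12 (31.6%). TGACNNNGC, the antioxidant response element that the proteasome regulator NFE2L1 binds, lay in 5 of the 38 promoters (13.2%) and in 12.2% of all. By particle it lay in 2 of 11 core and 2 of 14 regulatory promoters. The CCAAT box, searched as CCAAT, lay in 13 of 38 (34.2%) and 36.5% of all. It lay in 6 of 11 core promoters (54.55%) and in 4 of 14 regulatory promoters (28.57%). Both strands were searched for each motif, and in the 38 promoters no match to one motif overlapped a match to another. The motifs and the window were chosen after the expression values had been seen, and no test was made. A match is a description of the letters, not of bound protein.

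Core particle genes had a higher median FPKM than regulatory particle genes, with overlapping ranges. The 14 core subunits had a median level of 78.2 FPKM over the 4 libraries, against 51.7 FPKM for the 17 regulatory subunits. Core levels ran from 5.39 FPKM to 160 FPKM and regulatory levels from 23.2 FPKM to 75.2 FPKM. The core transcripts were also shorter by their median, as given with the length classes, and FPKM divide by length. The alpha ring, which gates the barrel, was led by Psma7 at a mean of 160 FPKM. Psma1, Psma2, Psma4, Psma6 and Psma7 were all at a mean of at least 47.0 FPKM, while Psma5 was at 14.0 FPKM and Psma3 at 5.39 FPKM. The proteins of the alpha genes occupy the ring in equal number, and their FPKM spanned a 29.7-fold range. The transcript counted for Psma3 had 2361 exon bases, against 927 to 1243 for the other alpha genes. FPKM divide by that length. Psma3 had 551 to 748 tags per library and Psma5, of 1206 bases, had 699 to 860, against 2215 to 2753 for Psma4. How far these FPKM reflect the amount of RNA was not tested. The beta ring, which holds the protease sites, was more even. It ran from 45.1 FPKM for Psmb7 to 147 FPKM for Psmb2, a 3.27-fold range.

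**Figure D2:**
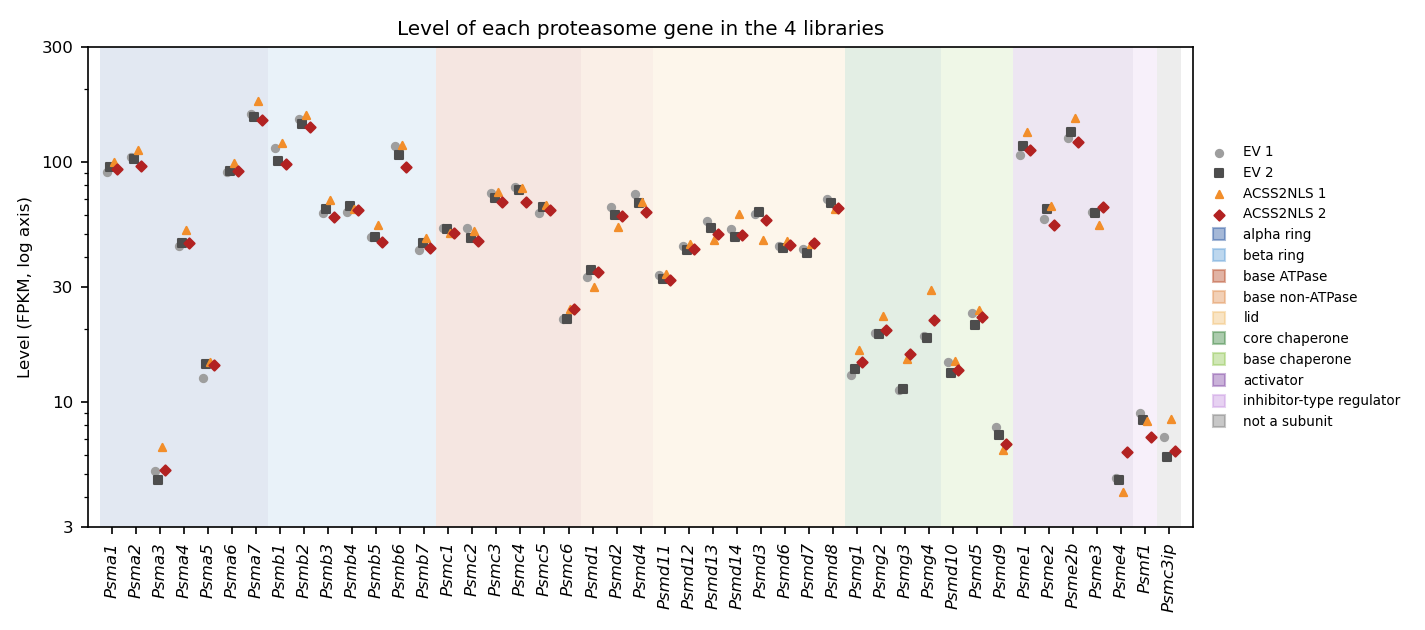
FPKM of each of the 45 genes in EV replicates 1 and 2 and ACSS2NLS replicates 1 and 2, on a log axis, with the genes ordered by role (shading). Psma3 and Psma5 lie far below the other alpha ring genes, and in the alpha and beta rings the triangle of ACSS2NLS replicate 1 is the highest point for 13 of 14 genes.

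Core particle genes were higher in ACSS2NLS replicate 1 than in any other library, and that library set their direction. Of the 14, 11 had a higher mean in ACSS2NLS, with a median log2 difference of 0.05, but 13 had their highest value in ACSS2NLS replicate 1 and 7 their lowest in ACSS2NLS replicate 2. Psma7 was at 158 and 153 FPKM in EV, against 179 and 149 FPKM in ACSS2NLS, so the ACSS2NLS libraries held both the highest and the lowest value (log2 difference 0.07 ± 0.15). Psmb6, the subunit with caspase-like activity, was at 116 and 107 FPKM in EV, against 118 and 95.3 FPKM in ACSS2NLS (-0.07 ± 0.15). Psmb5, the subunit with chymotrypsin-like activity and the main target of proteasome inhibitors, was at 48.6 and 48.4 FPKM in EV, against 54.5 and 46.4 FPKM in ACSS2NLS (0.05 ± 0.13; 95% interval -0.26 to 0.37). Psmb7, the subunit with trypsin-like activity, had a difference of 0.05 ± 0.12 and overlapping groups.

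The groups of Psma3 and Psma4 alone among core genes did not overlap. Psma4 was at 44.4 and 45.7 FPKM in EV, against 52.0 and 45.8 FPKM in ACSS2NLS, where replicate 2 only just exceeded the EV libraries. Psma3 was at 5.12 and 4.74 FPKM in EV, against 6.49 and 5.21 FPKM in ACSS2NLS (log2 difference 0.20 ± 0.16, limma-trend, adjusted p = 0.837). For both genes, ACSS2NLS replicate 2 exceeded the higher EV library by less than the counting error. The remaining core genes, Psma1, Psma2, Psma5, Psma6, Psmb1, Psmb2, Psmb3 and Psmb4, had differences between -0.01 and 0.09. Without ACSS2NLS replicate 1, 5 of the 14 core genes had a higher mean and the median difference was -0.04. Without ACSS2NLS replicate 2, all 14 had a higher mean and the median was 0.11.

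Regulatory particle genes lay on both sides of 0. Of the 17, 6 had a higher and 11 a lower mean in ACSS2NLS, with a median log2 difference of -0.04; both ACSS2NLS libraries lay below both EV libraries for 5 genes and above them for 3, which is 29.4% and 17.6% of 17, against 18.1% and 19.3% of all genes tested. Where the core had 13 of 14 genes highest in ACSS2NLS replicate 1, the regulatory particle had 7 of 17 highest there and 7 of 17 highest in EV replicate 1. The median was 0.04 without ACSS2NLS replicate 2, -0.06 without ACSS2NLS replicate 1, -0.004 without EV replicate 1 and -0.06 without EV replicate 2.

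The lid cleaves off the ubiquitin chain, and its genes had differences of both signs, none of which passed the test. Psmd3 (NM_009439; mm10 chromosome 11, 98682554 to 98695978), a scaffold of the lid, was at 60.4 and 61.7 FPKM in EV, against 47.1 and 56.9 FPKM in ACSS2NLS, with both ACSS2NLS libraries lower and replicate 1 the lowest (log2 difference -0.23 ± 0.13, limma-trend, adjusted p = 0.821). Psmd13 (NM_011875; chromosome 7, 140882394 to 140898642), another lid subunit, was at 56.5 and 53.1 FPKM in EV, against 47.1 and 50.1 FPKM in ACSS2NLS, again lower in both (-0.17 ± 0.11, limma-trend, adjusted p = 0.825). Psmd8 was also lower in both (-0.10 ± 0.11). The groups of Psmd3 did not overlap, so leaving out a library could not reverse its sign. Its difference was -0.10 without ACSS2NLS replicate 1 and -0.37 without ACSS2NLS replicate 2.

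Psmd14, the deubiquitinase of the lid, was at 52.3 and 48.6 FPKM in EV, against 60.4 and 49.4 FPKM in ACSS2NLS, with overlapping groups (0.11 ± 0.14). Its partner Psmd7 was at 43.1 and 41.6 FPKM in EV, against 45.4 and 45.8 FPKM in ACSS2NLS, higher in both ACSS2NLS libraries (0.10 ± 0.11), and Psmd6 was higher in both by less (0.06 ± 0.11). Psmd11 and Psmd12 had differences of -0.005 ± 0.11 and 0.02 ± 0.11. The 8 lid genes thus had 4 higher and 4 lower means, with a median of 0.005.

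The base holds the ATPases and the ubiquitin receptors. Psmc6, an ATPase, was at 22.1 and 22.01 FPKM in EV, against 24.4 and 24.3 FPKM in ACSS2NLS, with close replicates and groups apart (log2 difference 0.14 ± 0.10, limma-trend, adjusted p = 0.835). Psmc1 was lower in both ACSS2NLS libraries (-0.06 ± 0.11), and Psmc2, Psmc3, Psmc4 and Psmc5 had overlapping groups and differences between -0.09 and 0.04. Each ATPase is present once in its ring, and their levels ran from 23.2 FPKM for Psmc6 to 75.2 FPKM for Psmc4.

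All 3 base subunits that are not ATPases had a lower mean in ACSS2NLS. Psmd2, a large scaffold on which ubiquitin-like domains dock, was at 64.4 and 60.1 FPKM in EV, against 53.3 and 59.3 FPKM in ACSS2NLS, lower in both (-0.14 ± 0.12). The ubiquitin receptor Psmd4 was at 73.4 and 67.3 FPKM in EV, against 67.6 and 61.4 FPKM in ACSS2NLS, where ACSS2NLS replicate 1 and EV replicate 2 were nearly equal (-0.12 ± 0.12). Psmd1, the other scaffold, had overlapping groups (-0.08 ± 0.13).

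The core and the regulatory particle were set side by side in each library. The mean log2(FPKM + 1) of the core genes minus that of the regulatory genes came to 0.21 (replicate 1) and 0.25 (replicate 2) for EV, and to 0.39 (replicate 1) and 0.24 (replicate 2) for ACSS2NLS. A single library, ACSS2NLS replicate 1, was therefore apart from the other 3, and ACSS2NLS replicate 2 lay between the EV libraries. The median difference between the groups was 0.09 greater for the core than for the regulatory particle. It was 0.02 greater without ACSS2NLS replicate 1 and 0.04 greater without EV replicate 1. Without ACSS2NLS replicate 2 it was 0.08 greater, and without EV replicate 2 it was 0.12 greater.

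**Figure D3:**
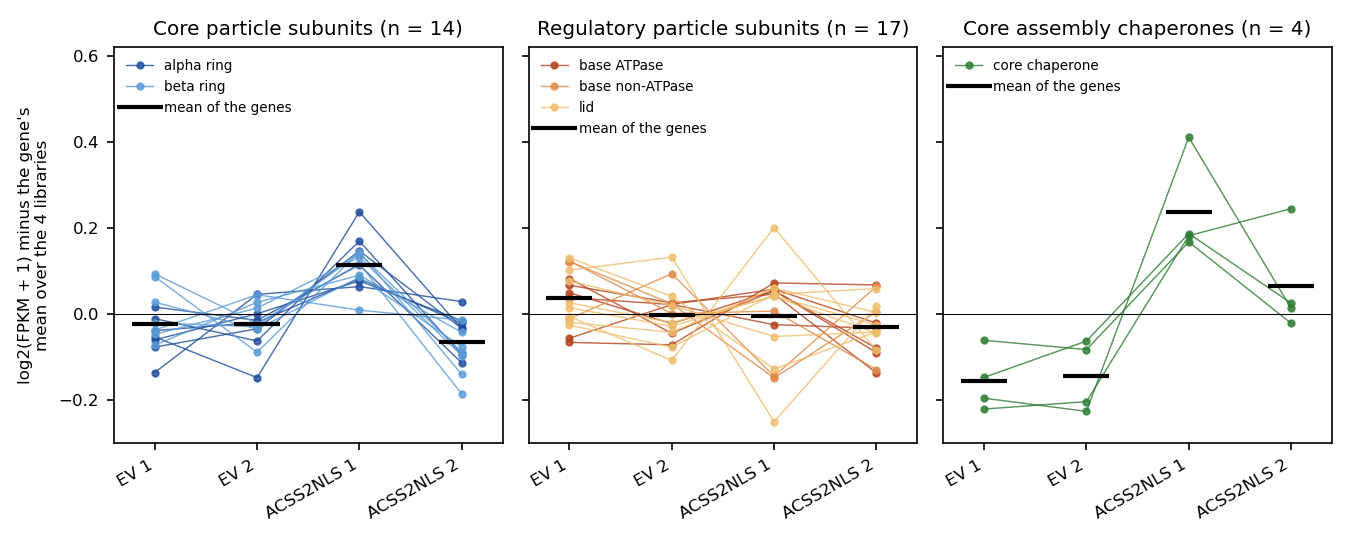
log2(FPKM + 1) of each core subunit, regulatory subunit and core assembly chaperone minus its own mean over the 4 libraries; lines follow a gene across the libraries and black bars are the mean of the genes. Core genes peak together in ACSS2NLS replicate 1 (mean 0.11) and are low in ACSS2NLS replicate 2 (mean -0.07), while the chaperones are above 0 on average in both (0.24 and 0.06).

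Transcript length moved with these values. Core genes had a median of 951 exon bases and regulatory genes 1548. Over all tested genes, the 1212 genes under 1000 exon bases had a median deviation of 0.15 from their own 4-library mean in ACSS2NLS replicate 1, against -0.05 to -0.06 in the other libraries, and the 3784 genes of 3000 bases or more had -0.10 in ACSS2NLS replicate 1 and 0.09 in ACSS2NLS replicate 2. Of the genes under 1000 bases, 55.0% were highest in ACSS2NLS replicate 1, and of those from 1000 to under 2000 bases, 32.6%, beside 92.9% of the core genes and 41.2% of the regulatory genes. Across the 45 proteasome genes, the correlation of the deviation in ACSS2NLS replicate 1 with log2 exon length was -0.72 (Pearson), and across the 9810 genes it was -0.25; these genes share their libraries and are not independent. With the length trend of each library removed, 4 of the 14 core genes had a higher mean in ACSS2NLS, their median difference was -0.03, and the core median was 0.01 above the regulatory one. That correction was chosen after the trend had been seen. The part of transcript length in the pattern of ACSS2NLS replicate 1 was not tested beyond it.

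**Figure D4:**
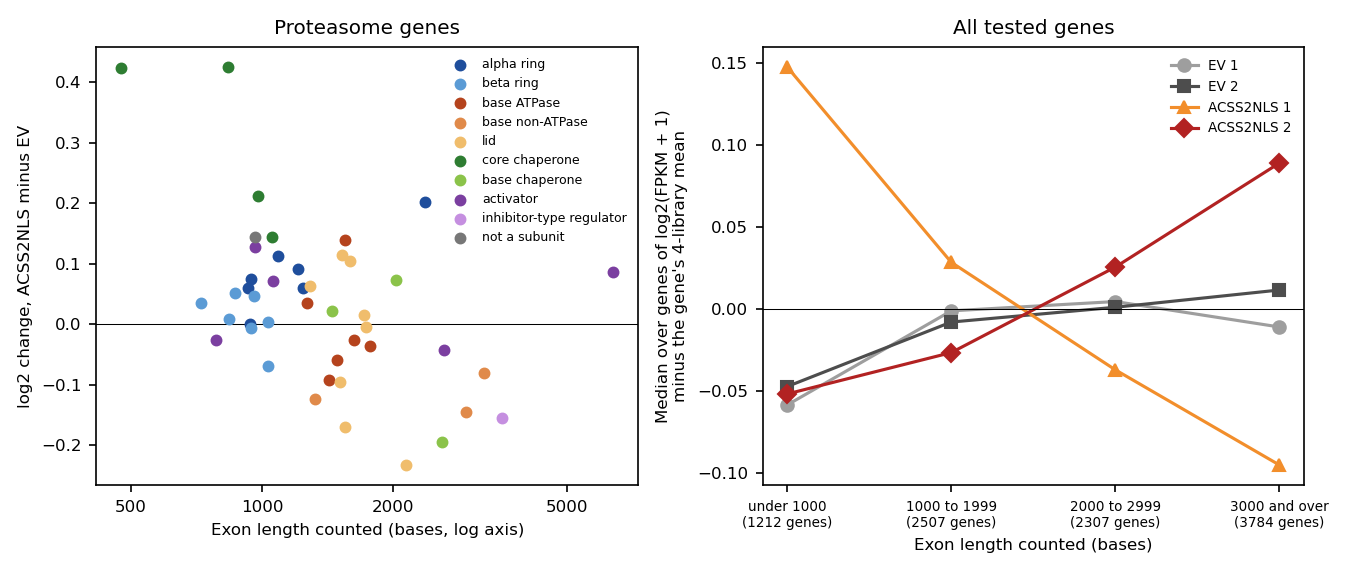
Left, log2 difference between ACSS2NLS and EV against counted exon length for the 45 genes, coloured by role. Right, median over all tested genes, in 4 length classes, of log2(FPKM + 1) minus the gene's 4-library mean in each library: ACSS2NLS replicate 1 goes from 0.15 in the shortest class to -0.10 in the longest, and ACSS2NLS replicate 2 from -0.05 to 0.09.

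Genes of the other activators had overlapping groups throughout. Psme1 and Psme2 encode the PA28 cap that interferon gamma induces. Psme1 was at 107 and 117 FPKM in EV, against 133 and 112 FPKM in ACSS2NLS, with overlapping groups (log2 difference 0.13 ± 0.14). Psme2 was at 57.7 and 63.6 FPKM in EV, against 65.3 and 54.2 FPKM in ACSS2NLS (-0.03 ± 0.14). Its near copy Psme2b, on chromosome 11, was listed at a higher mean of 133 FPKM. The annotated transcripts of Psme2 and Psme2b are identical at 95.1% of 788 aligned bases, so reads may have been split between them and both levels are uncertain.

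Psme3, the nuclear PA28 gamma, was at 61.7 and 61.0 FPKM in EV, against 54.6 and 64.9 FPKM in ACSS2NLS (-0.04 ± 0.13), and Psme4, which encodes PA200, had a difference of 0.09 ± 0.19. Psmf1, which encodes the proteasome-binding regulator PI31, was at 8.97 and 8.40 FPKM in EV, against 8.29 and 7.14 FPKM in ACSS2NLS, lower in both (-0.15 ± 0.14). Psmc3ip had overlapping groups (0.14 ± 0.19). It overlaps Mlx on the opposite strand by 67 bases, Psma4 and Psme1 overlap antisense genes by 96 and 4 bases, and Psma6 lies within the span listed for Mir1198 on its own strand. Psmb5 and Psme2b share 109 and 261 bases with the spans of Mir686 and 9930111J21Rik1 on their own strands, and Psmd1 overlaps Htr2b on the opposite strand, which was listed at a mean of 0.037 FPKM. Mir1198 was listed at a mean of 112 FPKM and Mir686 at 75.7 FPKM, above Psma6 at 93.1 FPKM and Psmb5 at 49.5 FPKM. The mean of 9930111J21Rik1 was 3.38 FPKM, against 133 FPKM for Psme2b. Reads of such overlapping genes may be shared, and the levels of these genes are uncertain to that extent, including that of Psmb5 in its ratio to Psmb8.

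The immunoproteasome subunits can take the place of the constitutive catalytic subunits, and their FPKM were higher in each library. Psmb8 was 6.003 to 7.37 times the level of Psmb5 in FPKM over the 4 libraries, Psmb9 was 1.62 to 1.93 times Psmb6 and Psmb10 was 1.55 to 1.82 times Psmb7, with log2 differences between the groups of -0.15 ± 0.17, 0.07 ± 0.14 and -0.06 ± 0.14 for Psmb8, Psmb9 and Psmb10.

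Genes around the proteasome, from ubiquitin and its activating enzymes to shuttle factors, segregase and the NFE2L1 pathway, were taken from a list of 37 symbols, 33 of which were in the table and tested. Of these, 16 had a higher and 17 a lower mean in ACSS2NLS, with a median log2 difference of -0.02, and 0 passed the limma-trend threshold in either direction, with 2 at an unadjusted p under 0.05, both higher, where 3.1% of all genes were. The groups did not overlap for 14 of them, 8 higher (24.2%) and 6 lower (18.2%), against 19.3% and 18.1% of all genes tested. The smallest unadjusted p-values belonged to Uba6, Ube3a, Rps27a and Nploc4. Uba6, an activating enzyme for ubiquitin, was at 3.08 and 2.77 FPKM in EV, against 4.27 and 5.69 FPKM in ACSS2NLS (log2 difference 0.60 ± 0.18, limma-trend, adjusted p = 0.81). Ube3a, a ubiquitin ligase that associates with the proteasome, was at 10.7 and 11.2 FPKM in EV, against 13.9 and 15.6 FPKM in ACSS2NLS (0.40 ± 0.12, limma-trend, adjusted p = 0.81).

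For both Uba6 and Ube3a the ACSS2NLS libraries were the higher ones and replicate 2 the highest. Rps27a, a fusion of ubiquitin with a ribosomal protein, was also higher in both (0.30 ± 0.13); as a ribosomal protein gene it has processed copies whose reads cannot be told apart with certainty. Nploc4, a cofactor of the VCP segregase, was at 21.2 and 21.7 FPKM in EV, against 14.8 and 18.99 FPKM in ACSS2NLS, lower in both (-0.34 ± 0.15). Nfe2l1, the transcription factor that restores proteasome genes when the proteasome is inhibited, was at 11.2 and 13.4 FPKM in EV, against 8.85 and 14.4 FPKM in ACSS2NLS, where the ACSS2NLS libraries held both extremes (-0.11 ± 0.24).

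Counting error was small beside the spread between ACSS2NLS replicates. A proteasome gene was covered by 280 tags (Psmc3ip, EV replicate 2) to 8711 tags (Psmd2, also EV replicate 2) per library, and the counting error of the least covered library was 0.02 on the log2 scale for the median gene and 0.09 at most. Tags from amplified cDNA are not independent molecules, so this covers counting error only. Replicates differed by a median of 0.07 on the log2 scale in EV and 0.16 in ACSS2NLS over the 45 genes.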

How the data were processed

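RNA sequencing of CD8+ tumour T cells was analysed from the deposited table, with 2 EV and 2 ACSS2NLS libraries. Per the labels' protocols, cDNA came from a SMART-Seq v4 kit for low input. STAR 2.5.3a, HOMER and mm10 were used per the submitters' processing notes. Per the file headers, the authors used HOMER to count sense-strand tags in exons, kept 1 transcript per gene and scaled to FPKM; the header names 8 tag directories and the table has 4 library columns. Columns named Acss2WT and Acss2OE were read as EV and ACSS2NLS. Strandedness of the kit is not given in the labels.

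The 9810 genes averaging 1 FPKM or more were put on the log2(FPKM + 1) scale, and the groups were compared with limma-trend (limma 3.58.1, R 4.3.3; two-sided, Benjamini-Hochberg over all genes). Total tags per library came from the step between low FPKM values multiplied by gene length (100% of the values checked were whole within 0.1), rounded. The smallest p of an exact permutation test of 2 against 2 libraries is 0.333. The fit was tested on simulated data with known changes. Promoters were searched for motifs as written. Genes named were all genes of the definition, Acss2, the immunoproteasome subunits and, from the surrounding pathway, the 4 with the smallest unadjusted p; Pomp and Nfe2l1 were added after their values were seen. The genes and lists were chosen with earlier results of these data known. Alternatives were the pseudocount, the filter on low values, the scaling, a replicate block, leaving out each library and, added after seeing the data, removal of a length trend.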

Additional observations from a re-analysis of the deposited data

How the results depend on the processing

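Of the 45 genes, 0 passed the adjusted threshold in either direction under each of the 13 alternatives. The number higher at an unadjusted p under 0.05 went from 2 to 1 with no filter on low values, with median centring and with the length trend removed, and ran from 0 to 2 with a library left out; the number lower ran from 0 to 1. A lone library in a group is there assumed to vary like the other group.

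Counts of genes whose groups do not overlap depended on the scaling. The number higher went from 9 to 16 under quantile normalization, 15 with FPKM rescaled to the same sum, 4 with median centring and 5 with the length trend removed, and ran from 11 to 31 with a library left out. The number lower went from 7 to 11 with the length trend removed and ran from 9 to 21. Under the 4 settings just named, 17.3%, 21.5%, 15.3% and 17.6% of all genes were apart upward. Downward it was 21.5% of all genes with the length trend removed. With a library left out, 30.9% to 43.4% of all genes were apart upward and 28.6% to 39.4% downward. The 31 genes without ACSS2NLS replicate 2 are 68.9%, against 33.9% of all genes, and the 11 without ACSS2NLS replicate 1 are 24.4%, against 43.4%. For the core, the number higher went from 2 to 5, 4, 0 and 0 under the same 4 settings and ran from 2 to 13; for the regulatory particle, the number lower went from 5 to 3 with rescaled FPKM and ran from 6 to 10. Fewer libraries make an overlap less likely by construction; for the scalings the cause was not tested.

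The number of the 45 with a higher mean ran from 17 to 33, and that of the core from 5 to 14, with 4 when the length trend was removed. The median log2 difference of the 45 was -0.018 with the length trend removed and ran from -0.040 to 0.097. That of the regulatory particle was -0.011 under quantile normalization, -0.067 with median centring, -0.011 with rescaled FPKM, and ran from -0.063 to 0.036; that of the chaperones was 0.19 with the length trend removed and ran from 0.18 to 0.34. Of the 12 genes whose difference exceeded its standard error, none changed sign under any alternative. All of them except Psmd4 had groups that did not overlap. For those, leaving out a library, the pseudocount, the filter and the block could not change the sign. Only the scalings and the length trend could have done so. The labels give both groups replicates 1 and 2 but do not say that a number pairs libraries. Same-numbered libraries deviated together (r = 0.58 across genes), which is a hint from the data only. With the replicate block the genes that passed went from 2 to 229 higher and from 0 to 172 lower among all 9810. Of the 45 genes, 0 passed, 2 were at an unadjusted p under 0.05 and the core median was 0.049, as without it. The limma-trend adjusted p-values of Psmg3 and Psmg4 were 0.0832 and 0.0808 with the block, against 0.81 for both without it. Of the surrounding genes named, Uba6 passed (limma-trend, adjusted p = 0.0482, against 0.688 to 0.865 under the other alternatives with all 4 libraries).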
